A study of Mus musculus with 12 samples.

Results

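The genes described here encode the protein synthesis machinery of the mitochondrion: the proteins of the mitochondrial ribosome and the aminoacyl-tRNA synthetases that work inside the organelle. Members were taken by gene symbol alone, as every gene whose symbol starts with Mrpl or Mrps followed by a number, or ends in ars2, and each was represented by its brightest probe set. The rule found 93 genes of 19938 measured through probe sets with a single symbol. They comprise 48 Mrpl genes, named for the large subunit, 29 Mrps genes, named for the small subunit, and 16 ars2 genes (synthetases). The classes follow the symbols, which do not settle where each protein sits. Mrps36, for one, is no part of the ribosome. Mrpl53 was measured only by a probe set shared with Ccdc142 and was left out.

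Transcripts were measured in whole muscle of male C57Bl6 mice aged 10 to 12 weeks on a regular diet, with 1 Affymetrix Mouse Gene 1.0 ST array per sample. The 12 arrays form 4 groups of 3 biological replicates: wild type (WT) gastrocnemius, Cox6a2-/- (KO) gastrocnemius, WT diaphragm and KO diaphragm. The KO mice lack Cox6a2, the heart and skeletal muscle form of a subunit of cytochrome c oxidase (complex IV), in every cell, and the WT controls were bought C57BL/6J mice that are not stated to be littermates. Values are log2 signals after robust multi-array averaging (RMA), so a difference of 1 is a doubling, and levels of different genes are not compared. Single genes were tested with limma in a model with a mean for each group, and a gene was called where its Benjamini-Hochberg adjusted p over all 19938 genes was under 0.05.

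Mitochondrial DNA encodes a small set of core respiratory chain proteins, and these are made on a ribosome of its own inside the matrix. All proteins of that ribosome are encoded in the nucleus, made in the cytosol and imported. The large subunit forms the peptide bonds and holds the exit tunnel, and the small subunit decodes the messenger RNA. Each ars2 enzyme charges mitochondrial tRNAs with 1 amino acid, apart from the cytosolic enzyme for the same amino acid.

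Cox6a2 itself was checked first. Its signal was 11.84, 11.65 and 11.73 on the WT gastrocnemius arrays and 6.71, 7.18 and 6.91 on the KO gastrocnemius arrays. It was 11.84, 11.76 and 12.06 on the arrays labelled WT diaphragm and 7.02, 6.71 and 6.94 on the KO diaphragm arrays. The genotypes did not overlap in either muscle. The muscle label was another matter. The 3 arrays labelled WT diaphragm correlated with the WT gastrocnemius arrays at Pearson's r of 0.989 to 0.992 over all genes, and with the KO diaphragm arrays at 0.963 to 0.975. Hoxc10, a hindlimb position gene, read 8.62, 8.75 and 8.68 on them, against 4.53, 3.82 and 4.18 in KO diaphragm and 8.36 to 8.55 in WT gastrocnemius. All 8 mesothelium markers (Upk3b, Msln, Lrrn4, Wt1, Upk1b, Krt19, Krt8 and Gpm6a) were called higher in KO diaphragm, with a median log2 fold change of 3.02 against the arrays labelled WT diaphragm, and all 5 glycolytic fibre markers were called lower, with a median of -2.57. The median level of the mesothelium list was 5.37 to 5.51 on those arrays, 5.31 to 5.49 in WT gastrocnemius and 7.85 to 8.70 in KO diaphragm. The arrays labelled WT diaphragm therefore read as hindlimb muscle by these markers, and they are named by their label throughout. A comparison of KO diaphragm with them cannot tell genotype apart from muscle.

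The promoters come before the values because 2 pairs of members share one. Promoter windows from RefSeq (build GRCm38.p6; 250 bases before to 50 bases after the start of transcription) were found for 82 of the 93 members, 89 windows in all. The letters CCGGAAG, the core bound by ETS factors such as GABP, were present on either strand in 29 of 89 member windows (32.6%), against 8.86% of all 32851 windows and 12.1% of windows of the genes tested. The letters GCGCNTGCG of the NRF1 motif were present in 22 member windows (24.7%), against 6.31% and 9.33%. The YY1 letters AAGATGGCG were present in 12 (13.5%), against 1.4% and 1.94%, and the TATA box letters TATAAA in 8 (8.99%), against 13.6% and 11.5%. ETS letters were in 29.8% of Mrpl, 40.7% of Mrps and 26.7% of ars2 windows, and NRF1 letters in 27.7%, 18.5% and 26.7%. A match describes the letters only and does not show that a factor binds. On the given strand alone the member shares were 16.9% for ETS, 14.6% for NRF1 and 11.2% for YY1, against 4.77%, 3.72% and 0.977% of all windows. Windows of the genes tested had 6.64%, 5.55% and 1.47%.

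Of the 82 members with a window, 30 (36.6%) started within 1000 bases of an oppositely transcribed, diverging start, against 12.3% of all genes with a window and 2247 of the 15563 tested genes with a window. These made 28 pairs, and in 2 of them both genes are members. Mrps12, whose protein sits at the decoding centre of the small subunit, faces Sars2, the mitochondrial seryl-tRNA synthetase, with starts 147 bases apart. Mrpl46 of the large subunit faces Mrps11 of the small subunit, with starts 42 bases apart. The windows of both pairs are shown because each holds the starts of 2 members, with those of Mrpl41, Mrpl39 and Mrps9, for which the 2 genotype differences were themselves called different. Each runs 5′ to 3′ on the strand of the named gene, with its own start at base 251, and capitals mark the motif letters found on either strand. The Mrps12 window (chr7:28741772-28742071, minus strand) holds ETS letters just after its start, and the Sars2 start is at base 104. The Mrpl46 window (chr7:78783040-78783339, minus strand) holds TATA letters about midway, and the Mrps11 start is at base 209. The Mrpl39 (chr16:84735195-84735494, minus strand) and Mrps9 (chr1:42850983-42851282, plus strand) windows hold NRF1 letters, with overlapping matches on both strands in Mrpl39. None of the 4 motifs was spelled out in the Mrpl41 window (chr2:24975049-24975348, minus strand).
Mrps12: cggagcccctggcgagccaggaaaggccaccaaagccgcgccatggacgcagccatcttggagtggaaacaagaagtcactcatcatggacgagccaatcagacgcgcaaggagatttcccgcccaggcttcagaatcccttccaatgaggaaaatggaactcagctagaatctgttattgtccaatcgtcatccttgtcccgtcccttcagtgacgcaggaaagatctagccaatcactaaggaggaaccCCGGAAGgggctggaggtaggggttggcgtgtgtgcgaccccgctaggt
Mrpl46: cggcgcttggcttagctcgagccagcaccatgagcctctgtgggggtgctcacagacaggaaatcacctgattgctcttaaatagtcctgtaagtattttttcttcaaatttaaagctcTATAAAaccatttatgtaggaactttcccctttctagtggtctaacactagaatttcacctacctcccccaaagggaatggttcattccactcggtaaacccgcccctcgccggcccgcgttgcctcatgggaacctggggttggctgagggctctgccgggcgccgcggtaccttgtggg
Mrpl41: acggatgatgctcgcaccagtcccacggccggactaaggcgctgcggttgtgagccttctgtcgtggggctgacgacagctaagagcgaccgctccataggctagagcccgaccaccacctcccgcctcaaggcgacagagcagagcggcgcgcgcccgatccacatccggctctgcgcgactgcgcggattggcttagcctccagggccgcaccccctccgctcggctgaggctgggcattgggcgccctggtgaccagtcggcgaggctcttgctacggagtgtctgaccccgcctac
Mrpl39: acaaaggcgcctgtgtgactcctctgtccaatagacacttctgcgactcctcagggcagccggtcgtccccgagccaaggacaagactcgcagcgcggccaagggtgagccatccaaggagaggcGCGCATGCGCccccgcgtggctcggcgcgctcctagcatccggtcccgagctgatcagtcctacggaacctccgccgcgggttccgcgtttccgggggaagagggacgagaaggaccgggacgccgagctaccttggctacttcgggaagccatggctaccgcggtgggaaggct
Mrps9: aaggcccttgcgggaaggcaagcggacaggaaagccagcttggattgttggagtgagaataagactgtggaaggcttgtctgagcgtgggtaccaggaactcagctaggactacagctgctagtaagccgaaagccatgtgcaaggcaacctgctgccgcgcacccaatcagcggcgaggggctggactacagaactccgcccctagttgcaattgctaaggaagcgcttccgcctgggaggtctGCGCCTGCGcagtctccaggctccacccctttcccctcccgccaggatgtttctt

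In gastrocnemius, the one muscle where label and markers match in both genotypes, most members read slightly higher in KO than in WT, and none was called. The median log2 fold change over the 93 members was 0.171, and 84 were positive (90.3%), against a median of -0.015 and 46.5% positive over all genes and 0.034 and 57.9% over genes at or above the median signal, to which 92 of the 93 belong. The background rate of calls was itself low, at 0.406% of genes called higher. At an unadjusted p under 0.05, 26 members (28%) were higher and 1 was lower, and the methods' t-test after adjustment also called 0. These 26 compare with 8.11% of all genes and 12.7% of the brighter genes that were higher. In 50 members (53.8%) all 3 KO arrays lay above all 3 WT arrays, against 12.3% of all genes and 19.5% of the brighter ones. With 3 arrays a group, an exact two-sided permutation test cannot go below p = 0.1 for a single gene. Under the other scalings tried, the median stayed positive, at 0.228 with each array centred on its median and 0.106 after quantile normalization. The median of all genes was 0.043 and -0.006 under the same scalings.

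The smallest adjusted p among members was 0.084, for Mrps36. It read 6.81, 7.14 and 7.05 in WT gastrocnemius and 7.44, 7.57 and 7.40 in KO gastrocnemius, a difference of 0.47 (SE 0.12). All KO arrays lay above all WT arrays. Despite its symbol, the protein is now known as a component of the 2-oxoglutarate dehydrogenase complex of the citric acid cycle and is no part of the ribosome. Mrpl27, a large subunit protein with a bacterial counterpart, read 8.12, 8.21 and 8.35 in WT and 8.72, 8.57 and 8.59 in KO, a difference of 0.40 (SE 0.10, adjusted p = 0.091 by limma). Its arrays did not overlap, and a second, dimmer probe set gave 0.60. With the mean of both probe sets Mrpl27 was the 1 member called. Mrpl19, of the large subunit, read 6.83, 6.97 and 7.06 in WT and 7.29, 7.35 and 7.34 in KO. Mrps25, a small subunit protein with no bacterial counterpart, read 6.999, 7.15 and 7.15 against 7.48, 7.57 and 7.40. Both differed by 0.38 without overlap (limma adjusted p = 0.091). Mrps28, of the small subunit, read 8.16, 8.15 and 8.39 in WT and 8.69, 8.66 and 8.52 in KO. Mrpl13, of the large subunit, read 7.71, 7.72 and 7.55 against 8.11, 7.92 and 8.15. Mrpl18, whose bacterial counterpart binds a small ribosomal RNA, read 10.38, 10.30 and 10.27 against 10.64, 10.59 and 10.72. In these 3 genes too every KO array was above every WT array. Mrpl48, a large subunit protein, completed the 8 members with the smallest p, at 8.45, 8.44 and 8.43 in WT and 8.78, 8.64 and 8.78 in KO. The 9 members below 0 were Vars2 (-0.29), Mrps34 (-0.27), Mrpl20 (-0.18), Mrps18b, Aars2, Mrps10, Mrps30, Pars2 and Mrpl11, and the synthetases Vars2 and Aars2 were the 2 with all KO arrays below all WT arrays.

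The 3 classes all leaned the same way in gastrocnemius. Mrpl had a median of 0.20 with 46 of 48 positive and 32 of 48 with the KO arrays wholly above. Mrps had a median of 0.12 with 25 of 29 positive and 12 wholly above, and ars2 a median of 0.15 with 13 of 16 positive and 6 wholly above. On each array, the median deviation of the 93 members from their own mean over all 12 arrays was -0.128, -0.087 and -0.131 in WT gastrocnemius and 0.051, 0.046 and 0.037 in KO gastrocnemius. The 3 KO arrays thus lay close together and above all 3 WT arrays. Markers of other cells differed in direction, with none called. All 10 macrophage, all 8 mesothelium and all 5 adipocyte markers were lower in KO gastrocnemius, with medians of -0.33, -0.20 and -0.51. Endothelial markers had a median of 0.15 with 4 of 6 positive, and B cell markers one of 0.01 with 3 of 5 positive. Without WT gastrocnemius replicate 1 the adipocyte median was -0.275, with 1 of 5 positive, and the mesothelium median -0.123, with 1 of 8 positive. The median level of the macrophage list was 7.10 to 7.37 in WT and 6.92 to 7.11 in KO, and that of the adipocyte list 6.69 to 7.40 and 6.28 to 6.57. The mesothelium list was dim, at 5.31 to 5.49 and 5.21 to 5.30, against medians of 6.04 to 6.15 over all genes on these arrays. Their part in the member values was not tested. In RNA from whole muscle, fewer cells of a type and less RNA per cell cannot be told apart.

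**Figure D1:**
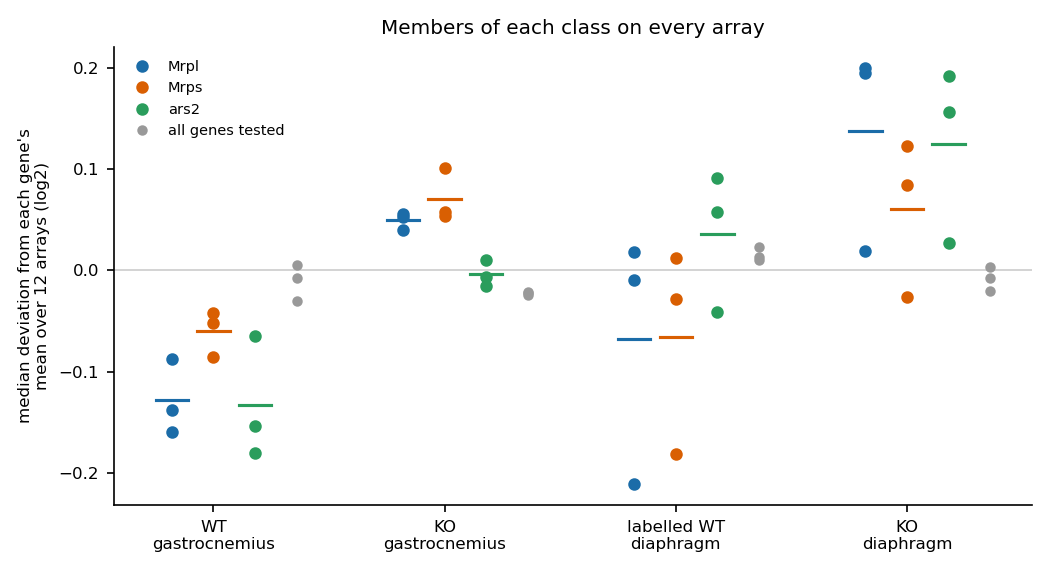
Median deviation of each class of members from each gene's own mean over the 12 arrays (log2, vertical axis) on every array (dots; short lines are group means of 3), with all 19938 genes in grey. The 3 KO gastrocnemius arrays lie above the 3 WT gastrocnemius arrays in every class, and replicate 2 of the arrays labelled WT diaphragm is the lowest of its group.

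Between KO diaphragm and the arrays labelled WT diaphragm, 26 members were called higher and 1 lower. That is 28% of members higher, against 16.3% of all genes and 24.5% of genes at or above the median signal, so the share is close to that of genes of like signal. The 1 member called lower compares with 11.2% of all genes and 16.3% of the brighter genes. The split was 21 higher and 4 lower with arrays centred on their medians, and 21 and 5 after quantile normalization. The median over the 93 members was 0.161 with 69 positive, against -0.044 over all genes and 0.041 over the brighter ones. Without replicate 2 of the arrays labelled WT diaphragm it was 0.103, with 60 positive. In 32 members all 3 KO diaphragm arrays lay above all 3 arrays labelled WT diaphragm (34.4%), against 20.9% of all genes and 30.6% of the brighter ones, again close to genes of like signal. Oxidative fibre contractile markers were called higher in 9 of 9 and macrophage markers in 9 of 10 in the same comparison, and muscle and genotype cannot be told apart in it.

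Mrpl41, a large subunit protein without a bacterial counterpart, differed the most. Its signal was 8.55, 8.09 and 8.40 on the arrays labelled WT diaphragm and 9.26, 9.12 and 9.22 in KO diaphragm. The groups were well apart, with a log2 fold change of 0.86 (SE 0.15, limma adjusted p = 0.00073), and the second probe set of the gene gave 0.53. Mrpl3, with a bacterial counterpart near the peptide-bond site, read 8.60, 8.04 and 8.56 against 9.23, 9.01 and 9.26 (0.76, SE 0.14). Mrpl39 read 9.15, 9.08 and 9.14 against 9.79, 9.70 and 9.81 (0.64, SE 0.09, limma adjusted p = 0.00014), a tight pair of groups with a wide gap. Mrpl14 and Mrpl55, also of the large subunit, were called higher by 0.56 and 0.51, but replicate 2 of the arrays labelled WT diaphragm read 7.39 and 8.30 for them where the other two read 8.18 and 8.26, and 8.93 and 8.90. Without that array the differences were 0.28 and 0.30, and Mrpl55 was no longer called (limma adjusted p = 0.053). Mrpl24, which lies at the exit of the peptide tunnel, was 9.01, 8.79 and 9.03 against 9.44, 9.34 and 9.53, again without overlap.

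Among Mrps genes, Mrps35, specific to mitochondria, read 7.39, 7.18 and 7.18 on the arrays labelled WT diaphragm and 8.14, 7.73 and 8.06 in KO diaphragm (0.72, SE 0.11, limma adjusted p = 0.00024). Mrps33 read 8.78, 8.29 and 8.72 against 9.12, 8.97 and 9.37. Mrps9, the counterpart of bacterial S9, read 7.25, 7.09 and 7.17 against 7.82, 7.54 and 7.67. These 3 were apart on every array. Mrps36 read 7.13, 6.90 and 7.09 against 7.40, 7.43 and 7.72 and was also called higher, by 0.48 (SE 0.12), beside 0.47 in gastrocnemius. Mrps23, without a bacterial counterpart, read 9.50, 9.31 and 9.53 against 10.05, 9.77 and 9.80. Mrps25 read 7.28, 7.17 and 7.12 against 7.76, 7.48 and 7.57. No array of these groups overlapped either, and Mrps5, at 0.39, was the last of the 7 called. The paralogs Mrps18a, Mrps18b and Mrps18c, which occupy different places in the ribosome, differed in direction with none called: -0.12 (SE 0.13), -0.24 (SE 0.10) and 0.24 (SE 0.12). Mrps18c read 9.40, 9.11 and 9.39 on the arrays labelled WT diaphragm and 9.36, 9.46 and 9.79 in KO diaphragm, Mrps18b 9.40, 9.17 and 9.51 against 9.19, 9.06 and 9.10, and Mrps18a 9.58, 8.99 and 9.44 against 9.38, 9.12 and 9.15. The groups overlapped in all 3. Without replicate 2 of the arrays labelled WT diaphragm the values were -0.29, -0.34 and 0.14, and Mrps18b was then called lower (limma adjusted p = 0.019).

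Of the 16 synthetases, 4 were called higher. Fars2, for phenylalanine, read 7.92, 7.72 and 8.09 on the arrays labelled WT diaphragm and 8.45, 8.17 and 8.46 in KO diaphragm (0.45, SE 0.11, limma adjusted p = 0.0069). Iars2, for isoleucine, read 8.35, 8.49 and 8.32 against 8.75, 8.60 and 8.88. Rars2, for arginine, read 6.87, 6.71 and 6.60 against 7.17, 6.98 and 7.05. Cars2, for cysteine, was the smallest of the 4, at 6.97, 6.80 and 6.87 against 7.30, 7.15 and 7.16 (0.32, SE 0.09). None of the 4 overlapped between the groups. The synthetase with the lowest value was Sars2, at -0.27, not called.

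The member called lower was Mrpl54, a large subunit protein without a bacterial counterpart. It read 8.32, 8.08 and 8.24 on the arrays labelled WT diaphragm and 7.95, 7.70 and 7.87 in KO diaphragm (-0.38, SE 0.10, limma adjusted p = 0.015), with every KO array below. Leaving out each of the 6 arrays in turn, 17 of the 26 members called higher stayed called every time, Mrpl41, Mrpl39, Mrpl3, Mrps35, Mrps9 and Fars2 among them. The other nine were Mrpl14, Mrpl19, Mrpl34, Mrpl35, Mrpl55, Mrpl58, Mrps23, Iars2 and Rars2. Mrpl54 stayed called in 4 of 6, and was not called without KO diaphragm replicate 2 (-0.30) or replicate 1 of the arrays labelled WT diaphragm (-0.32). Without replicate 2 of the arrays labelled WT diaphragm, 20 were called higher and 4 lower, and without KO diaphragm replicate 1, 17 and 2. KO diaphragm replicate 2 also stood apart in its members, whose median deviation was 0.009 against 0.169 and 0.163 on the other KO diaphragm arrays, and its adipocyte list read 9.15 against 7.69 and 6.83. The part of adipocyte RNA in the member values was not tested. Probe sets of a gene disagreed in Mrpl47, where the one used gave -0.13 and the other 0.40, and in Mrpl27 (0.12 and -0.05).

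**Figure D2:**
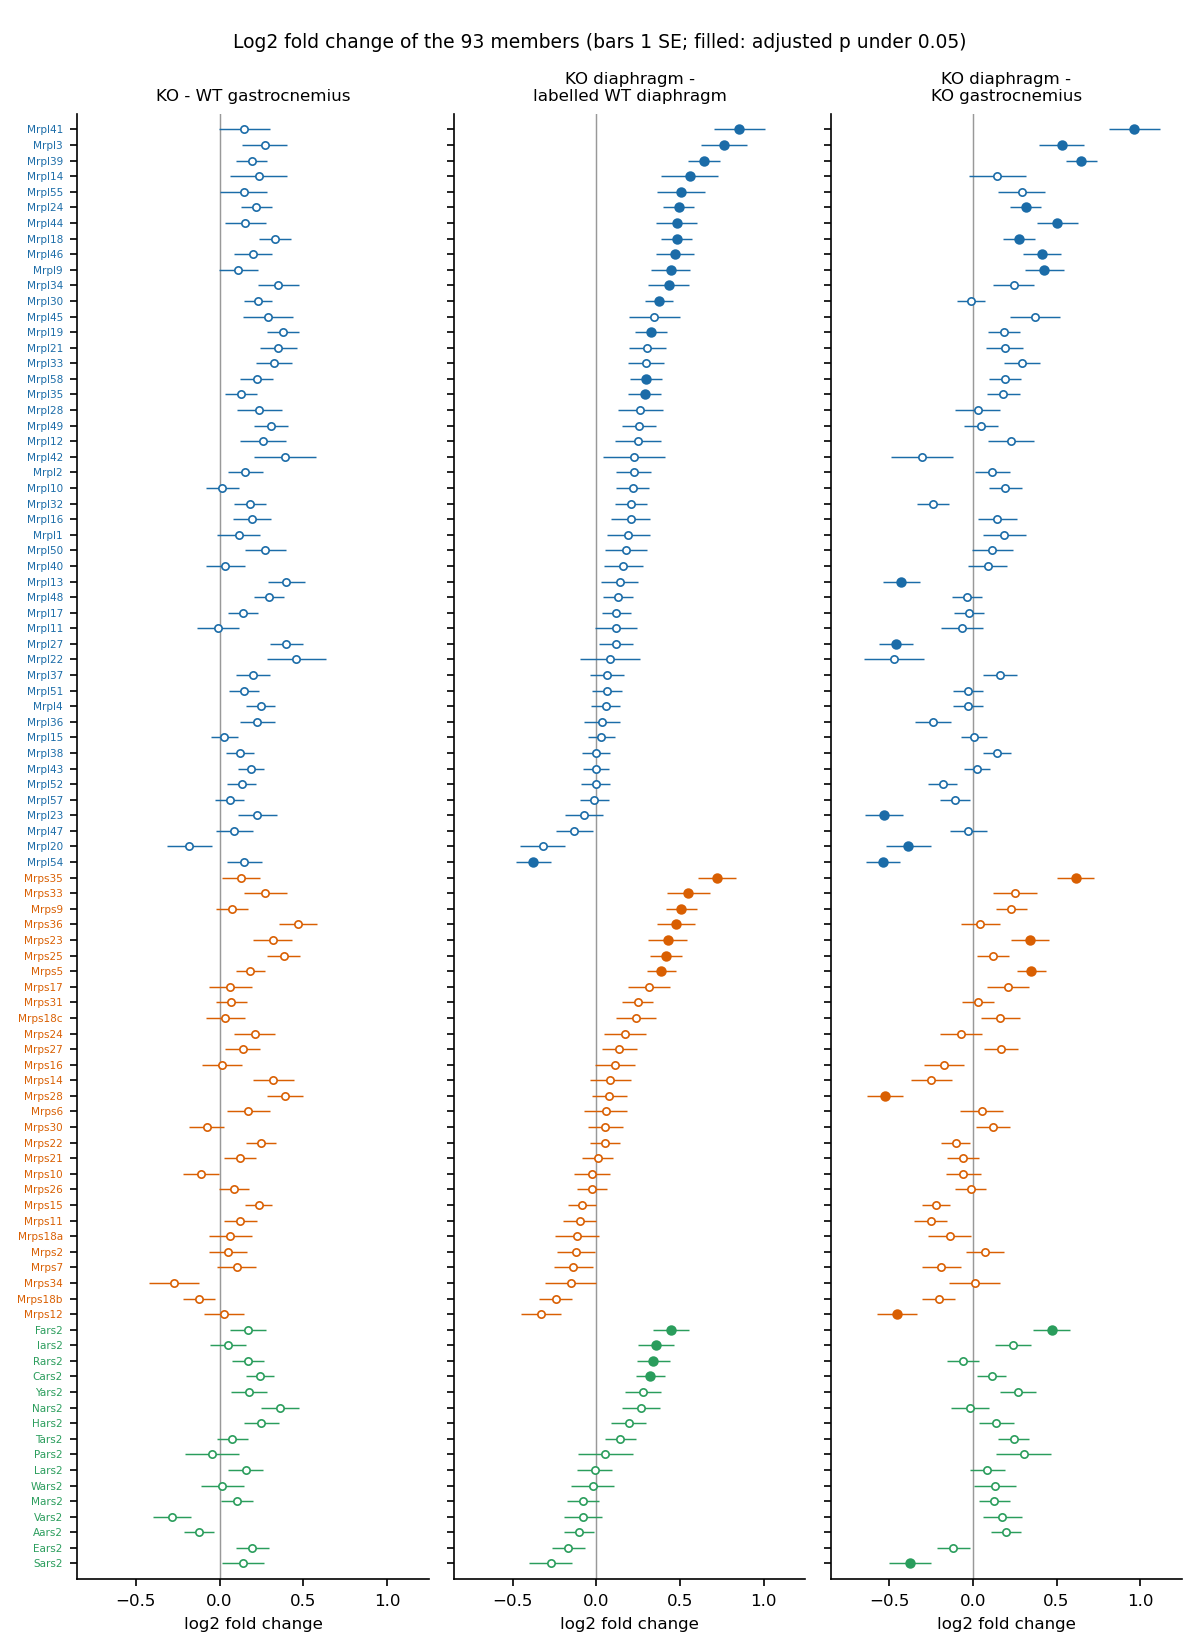
Log2 fold change (horizontal axis; bars are 1 SE) of all 93 members in 3 comparisons, ordered within each class by the middle one; filled dots have a limma adjusted p under 0.05. No dot is filled in the gastrocnemius panel although 84 of 93 lie right of 0, 27 are filled in the middle panel and 20 in the right one.

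KO diaphragm against KO gastrocnemius compares 2 muscles of 1 genotype and uses no WT array, and it shares the KO diaphragm arrays with the comparison above. Here 12 members were called higher (12.9%), against 17.7% of all genes and 24.8% of the brighter ones, and 8 were called lower (8.6%), against 11.2% and 17.5%. Neither share was above that of genes of like signal. Centring the arrays changed the split to 6 higher and 16 lower, and quantile normalization to 12 and 12. The median over the members was 0.088, but -0.039 with centred arrays, a scaling that moved the median of all genes in this comparison from 0.016 to -0.111. The members therefore had no direction between the muscles that held across scalings. The members ran from -0.54 for Mrpl54 to 0.97 for Mrpl41, and their quartiles of -0.071 and 0.209 lay inside those of the brighter genes, -0.194 and 0.315.

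The values on every array show which members lay at the ends of this range. Mrpl41 read 8.35, 8.36 and 7.99 in KO gastrocnemius against 9.26, 9.12 and 9.22 in KO diaphragm, the 2 muscles differing by 0.97 (SE 0.15, limma adjusted p = 0.00025). Mrpl39 read 9.11, 9.22 and 9.03 in KO gastrocnemius, and its KO diaphragm arrays were all higher, by 0.65 in the mean (SE 0.09). Mrps35 read 7.32, 7.35 and 7.41 in KO gastrocnemius and was 0.61 higher in KO diaphragm (SE 0.11). These 3 genes did not overlap between the muscles. Mrpl3 read 8.62, 8.76 and 8.52 in KO gastrocnemius and differed by 0.53 (SE 0.14). Mrpl44, a large subunit protein related to an RNase, read 7.76, 8.15 and 7.85 against 8.45, 8.25 and 8.57 in KO diaphragm (0.50, SE 0.12), again apart. Fars2, the 1 synthetase called higher, read 7.88, 7.82 and 7.96 in KO gastrocnemius and differed by 0.47 (SE 0.11). Mrps5 read 8.12, 7.91 and 8.06 in KO gastrocnemius and 8.41, 8.29 and 8.44 in KO diaphragm, and Mrps23 9.72, 9.48 and 9.40 in KO gastrocnemius. They were the other small subunit genes called higher, by 0.35 and 0.34, and neither overlapped.

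At the low end, Mrpl54 read 8.50, 8.39 and 8.24 in KO gastrocnemius against 7.95, 7.70 and 7.87 in KO diaphragm (-0.54, SE 0.10). Mrpl23, which borders the exit tunnel, read 10.22, 10.36 and 10.34 against 9.62, 9.69 and 10.01 (-0.53, SE 0.12). Mrps28 read 8.69, 8.66 and 8.52 against 8.19, 7.91 and 8.19 (-0.53, SE 0.11). All 3 fell without overlap. Mrpl27 read 8.13, 8.08 and 8.29 in KO diaphragm, 0.46 below its KO gastrocnemius mean on the log2 scale, and Mrpl13 read 7.62, 7.59 and 7.69, with a difference of -0.43. Mrpl20, which binds ribosomal RNA early in assembly, was the last large subunit gene called lower, at -0.39. Mrps28, Mrpl27 and Mrpl13 were also among the 8 members with the smallest p between KO and WT gastrocnemius, a comparison that shares the KO gastrocnemius arrays. With each of the 6 KO arrays left out in turn, 8 of the 12 called higher and 5 of the 8 called lower (Mrpl54, Mrpl23, Mrps28, Mrpl27 and Mrpl13) stayed called every time. The exceptions were Mrpl18, Mrpl24, Mrpl46 and Mrps23 on the high side and Mrpl20, Mrps12 and Sars2 on the low side. Without KO diaphragm replicate 2, 5 were called lower, and without KO diaphragm replicate 3 or KO gastrocnemius replicate 2, 8 were called higher.

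The head-to-head partners Mrps12 and Sars2 were both called lower in KO diaphragm than in KO gastrocnemius. Mrps12 read 7.17, 7.30 and 7.15 in KO gastrocnemius and 6.99, 6.56 and 6.71 in KO diaphragm (-0.45, SE 0.12, limma adjusted p = 0.011). Sars2 read 7.51, 7.55 and 7.50 against 7.30, 6.87 and 7.26 (-0.38, SE 0.13, limma adjusted p = 0.036). Neither overlapped between the muscles, though KO diaphragm replicate 2 was the lowest array for both, and without it Mrps12 (-0.36, adjusted p = 0.059) and Sars2 (-0.24, adjusted p = 0.17) were no longer called by limma. Over all 6 arrays left out in turn, Mrps12 was called in 5 fits and Sars2 in 2. Against the arrays labelled WT diaphragm they differed by -0.33 and -0.27, not called. Without replicate 2 of those arrays Mrps12 was called (-0.43, limma adjusted p = 0.021) and Sars2 was not (-0.36, 0.072).

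The other pair of members did not move together. Mrpl46 read 7.93, 7.76 and 7.87 in KO gastrocnemius, 7.87, 7.59 and 7.95 on the arrays labelled WT diaphragm and 8.24, 8.15 and 8.41 in KO diaphragm, and it was called higher in both comparisons (0.47 and 0.42). Mrps11, 42 bases away, read 6.52, 6.61 and 6.76, then 6.47, 6.34 and 6.62, and then 6.48, 6.31 and 6.33 in the same 3 groups, with values of -0.10 and -0.25, neither called. The difference between the partners was not tested. Over the 26 pairs with both genes measured, 4 had both genes called in the KO diaphragm comparison with the arrays labelled WT diaphragm, 2 in the same direction (Fars2 with Lyrm4, and Mrpl30 with Mitd1) and 2 in opposite directions (Mrpl41 with Pnpla7, and Mrps5 with Zfp661). Only the member was called in 4 pairs, only the neighbour in 5 and neither in 13. Between the KO muscles 4 pairs had both called, and Fars2 with Lyrm4 and Mrps12 with Sars2 were the 2 in the same direction. In the first comparison 16.3% of all genes were called higher and 11.2% lower (24.5% and 16.3% of the brighter ones). Between the KO muscles the shares were 17.7% and 11.2% (24.8% and 17.5%). Pairs over all genes were not counted, so the pair counts are not read as high or low.

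**Figure D3:**
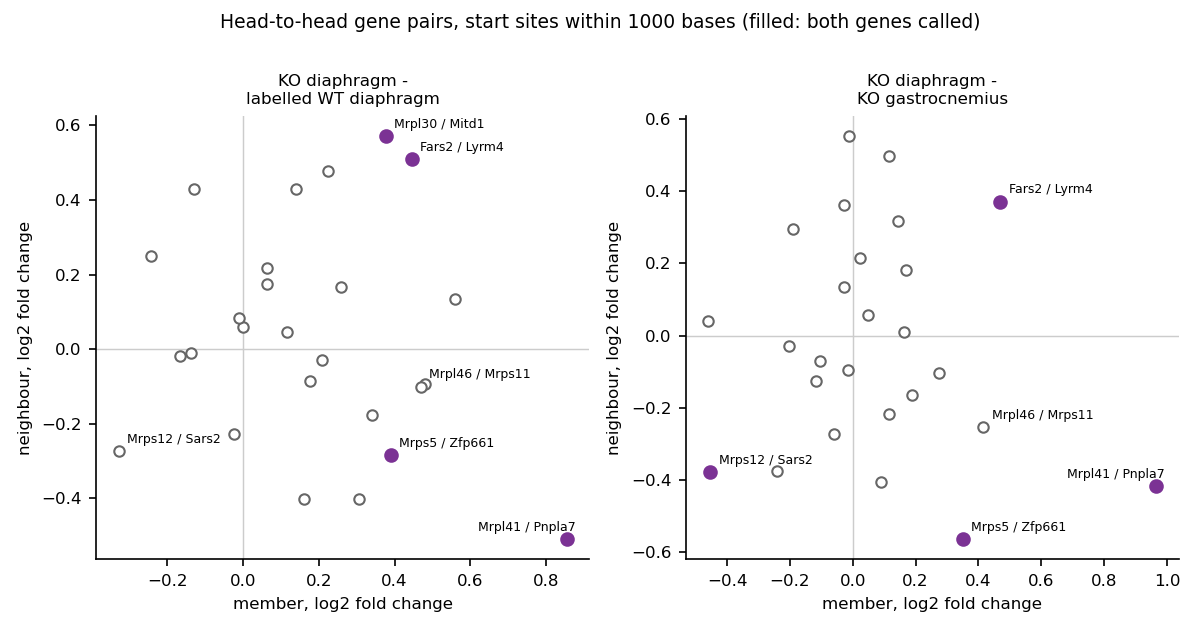
Log2 fold change of the member (horizontal axis) and of its head-to-head neighbour (vertical axis) in the 26 pairs with both genes measured; filled dots are pairs with both genes called. Mrps12 with Sars2 lies in the lower left of the right panel, and Mrpl41 with Pnpla7 at the lower right of both.

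Between the arrays labelled WT diaphragm and WT gastrocnemius no member was called by limma, against 0.461% of all genes called in either direction. At an unadjusted p under 0.05, 8 members were higher (8.6%) and 4 lower (4.3%). Over all 19938 genes 1690 were higher and 887 lower by the same rule, a like share. The methods' t-test after adjustment also called 0 members. The median was 0.046, 0.001 without replicate 1 of the arrays labelled WT diaphragm, and 0.129 without replicate 2 of the arrays labelled WT diaphragm, whose members had the lowest median deviation of all 12 arrays (-0.176). By class the medians were 0.05 for Mrpl, -0.01 for Mrps and 0.17 for ars2. With each of the 6 WT arrays left out in turn they ran from 0.012 to 0.141, from -0.050 to 0.071 and from 0.113 to 0.168, so the Mrps median changed sign, at 0.071 without replicate 2 of the arrays labelled WT diaphragm.

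The genotype difference in the diaphragm label was set against that in gastrocnemius by the interaction term, which tests whether the 2 differences are unequal. It called 5 of the 93 members, 4 positive and 1 negative (5 of 93 against 14.8% of all genes called in either direction). They were Mrpl41 (0.71, SE 0.21), Mrps35 (0.59, SE 0.16), Mrpl39 (0.45, SE 0.13), Mrps9 (0.43, SE 0.13) and Mrpl54 (-0.52, SE 0.15). In gastrocnemius their groups overlapped. Mrpl41 read 8.001, 8.41 and 7.84 in WT gastrocnemius, Mrps35 7.36, 7.18 and 7.16, and Mrpl39 8.82, 8.87 and 9.10. Mrps9 read 7.27, 7.45 and 7.40 in WT and 7.50, 7.46 and 7.38 in KO gastrocnemius, and Mrpl54 8.17, 8.18 and 8.33 in WT gastrocnemius. With arrays centred on their medians, the scaling that moved the interaction median of all genes from -0.002 to -0.134, the calls were Ears2, Mrpl54 and Mrps15, all negative, and none of the 4 positive ones passed (0.30 to 0.58). Mrps9 also failed to pass after quantile normalization (0.37) and with the replicate block as a fixed effect, while Mrpl54 was called on all 3 scales. Over all members the interaction median was 0.002.

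**Figure D4:**
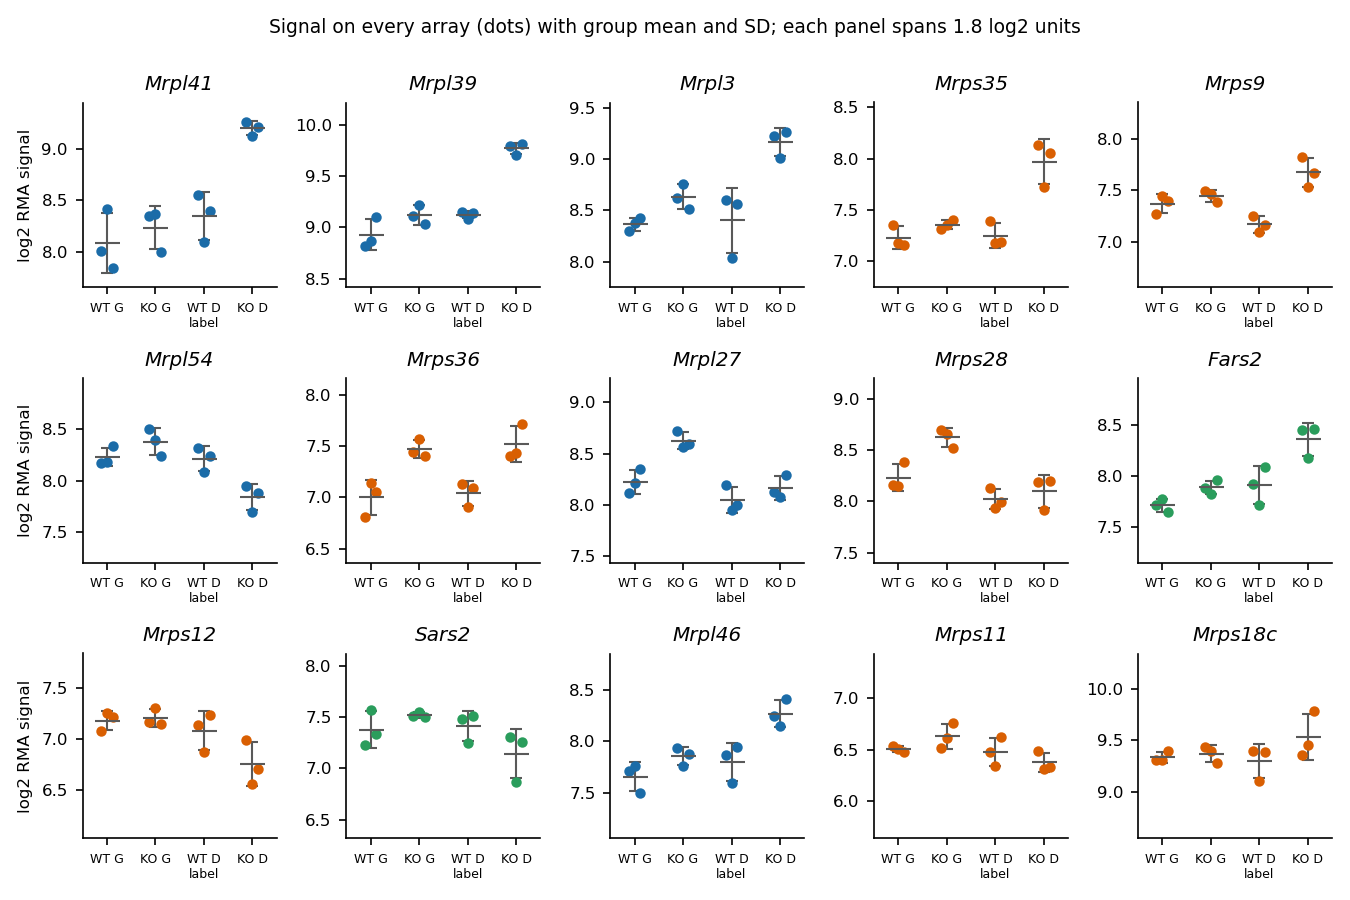
Log2 RMA signal (vertical axis) of 15 members on every array (dots) with group means and SDs; G is gastrocnemius, D diaphragm, and WT D label marks the arrays labelled WT diaphragm. Mrpl41, Mrpl39, Mrpl3 and Mrps35 are highest in KO diaphragm, Mrps36 is higher in both KO groups, and Mrpl27 and Mrps28 are highest in KO gastrocnemius.

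The classes were compared with each other by counts and medians. In the comparison of KO diaphragm with the arrays labelled WT diaphragm, 15 of 48 Mrpl genes (31.2%) were called higher and 1 lower, 7 of 29 Mrps (24.1%) higher and 0 lower, and 4 of 16 ars2 (25%) higher and 0 lower, with medians of 0.21, 0.08 and 0.10. As each of the 6 arrays was left out in turn, the counts called higher ran from 9 to 18 for Mrpl, 6 to 9 for Mrps and 2 to 4 for ars2, and the medians from 0.122 to 0.303, 0.012 to 0.147 and 0.072 to 0.188. Without replicate 2 of the arrays labelled WT diaphragm the Mrps median was the 0.012, and 3 Mrps genes (Mrps12, Mrps18b and Mrps7) were called lower. With centred arrays the Mrps median was 0.004 and the ars2 median 0.025. Centring moved the median of all genes in this comparison from -0.044 to -0.118. Between the KO muscles, Mrpl had 8 called higher (16.7%) and 5 lower (10.4%), Mrps 3 (10.3%) and 2 (6.9%), and ars2 1 and 1 (6.25% each). Of the brighter genes, 24.8% were called higher and 17.5% lower there. Ribosomal proteins with a bacterial counterpart and those added in mitochondria were also set side by side, for KO diaphragm against the arrays labelled WT diaphragm. In that comparison 24.5% of the brighter genes were called higher and 16.3% lower. For Mrpl, 9 of 28 with a counterpart and 6 of 20 without were called higher, with medians of 0.22 and 0.17. For Mrps, 2 of 18 with a counterpart (Mrps9 and Mrps5) and 4 of 10 without were called higher, with medians of 0.03 and 0.19. The first of these medians had no steady sign: it was -0.032 without replicate 2 of the arrays labelled WT diaphragm and -0.017 without KO diaphragm replicate 1. Between the KO muscles the Mrps medians were -0.10 with a counterpart (6 of 18 positive) and 0.12 without (8 of 10 positive). These are descriptions of the gene groups, with no test between them.

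Other genes of mitochondrial protein synthesis were read in the same way. Of 14 translation factors measured beside the member Mrpl58, which is also a release factor, 8 were called higher (57.1%, against 24.5% of the brighter genes) and 1 lower in KO diaphragm against the arrays labelled WT diaphragm, with a median of 0.37. From 6 to 8 were called higher as each array was left out. In gastrocnemius 12 of 14 were positive with none called (median 0.23). Mtif2, the initiation factor that brings the first tRNA, read 8.07, 8.27 and 8.002 on the arrays labelled WT diaphragm and 8.84, 8.66 and 8.84 in KO diaphragm (0.67, SE 0.11). Guf1, an elongation factor, differed by 0.65 (SE 0.12), and Qrsl1 by 0.53 (SE 0.11). Qrsl1, Gatb and Gatc encode the 3 subunits of the enzyme that makes glutaminyl-tRNA in mitochondria, where no glutamine synthetase of the ars2 kind is used. They split: Gatb differed by 0.51 (SE 0.11) and was called higher, while Gatc read 8.48, 8.49 and 8.61 against 8.24, 7.85 and 8.14 and was called lower (-0.45, SE 0.10). Gatc also had an interaction of -0.64, called with any 1 of the 12 arrays left out, and Gatb one of 0.54, called in 3 of those 12 fits. Of 5 ribosomal proteins under other names, 3 were called higher, Ptcd3 by 0.56 (SE 0.12), Gadd45gip1 by 0.48 (SE 0.17) and Mrpl58, itself a member, by 0.30. Gadd45gip1 read 7.84, 7.05 and 7.65 on the arrays labelled WT diaphragm and 8.27, 7.80 and 7.90 in KO diaphragm. Its groups overlapped, and without replicate 2 of the former it differed by 0.25 and was not called (limma adjusted p = 0.20). Ptcd3 alone of the 3 stayed called with every 1 of the 6 arrays left out. Chchd1, a small subunit protein of the same list, read 8.30, 8.10 and 8.55 in KO gastrocnemius against 7.79, 7.58 and 7.65 in KO diaphragm and was called lower there (-0.64, limma adjusted p = 0.0033).

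Of the brighter genes, 24.5% were called higher and 16.3% lower in KO diaphragm against the arrays labelled WT diaphragm. These shares are the background for the counts of the lists in this paragraph. Of 18 ribosome assembly and RNA modification genes, 4 were called higher and 1 lower in that comparison. The lower one was Malsu1, which binds the large subunit during assembly. It read 7.82, 7.51 and 7.88 on the arrays labelled WT diaphragm, 7.29, 7.21 and 7.21 in KO diaphragm and 8.32, 8.19 and 8.47 in KO gastrocnemius, and it differed by -0.50 and, between the KO muscles, by -1.09 (limma adjusted p = 1.3e-05). Mtg1, a GTPase of large subunit assembly, was called in gastrocnemius, where no member was. It read 7.50, 7.65 and 7.57 in WT and 8.07, 8.05 and 8.04 in KO gastrocnemius (0.48, SE 0.09, limma adjusted p = 0.032), with all KO arrays above. With each of the 6 gastrocnemius arrays left out in turn Mtg1 differed by 0.45 to 0.52 and was called in 1 fit. Among 12 transcription and RNA stability genes 2 were called higher (Pnpt1, 1.01, and Lrpprc, 0.47) and 1 lower (Polrmt, the mitochondrial RNA polymerase, -0.29, called in 2 of the 6 leave-one-out fits). Among 14 tRNA processing genes 2 were called higher and 3 lower, with Hsd17b10, a subunit of the RNase that frees mitochondrial tRNAs, at 0.70 and Prorp, the catalytic subunit of the same enzyme, at -0.49.

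The next list held cytosolic synthetases, which charge tRNAs for the ribosomes outside mitochondria, and dual ones, which also serve those inside. Its genes were lower in KO diaphragm where they were called. Of 18, 0 were called higher and 6 lower against the arrays labelled WT diaphragm (median -0.19). The 6 lower are 33.3% of the list, against 16.3% of the brighter genes, and 3 to 6 were lower as each array was left out. The 4 higher of the 16 ars2 genes are 25%, against 24.5% of the brighter genes, and so at the background share. Between the KO muscles 3 of the 18 cytosolic and dual synthetases were called lower (16.7%). There 17.5% of the brighter genes were called lower, so this share is also at the background. Yars, for tyrosine, read 8.91, 8.60 and 8.79 on the arrays labelled WT diaphragm and 8.21, 8.16 and 8.35 in KO diaphragm (-0.53, SE 0.10), Mars1, for methionine, differed by -0.49 (SE 0.10), and Iars, for isoleucine, by -0.44 (SE 0.09) where Iars2 differed by 0.36. In gastrocnemius the list of cytosolic and dual synthetases had a median of -0.001 and 9 of 18 positive, beside 13 of 16 for ars2. Of 9 regulators of mitochondrial gene programmes, 3 were called higher in KO diaphragm against the arrays labelled WT diaphragm: Ppargc1a (1.11, SE 0.29), Ppargc1b (0.50, SE 0.16) and Gabpa (0.43, SE 0.13), which encodes the DNA-binding subunit of GABP. Ppargc1a, a coactivator of mitochondrial genes, read 9.62, 8.66 and 8.40 on the arrays labelled WT diaphragm and 10.57, 9.98 and 9.46 in KO diaphragm, so its groups overlapped. As each of the 6 arrays was left out, Ppargc1a was called in 5 fits (not without replicate 3 of the arrays labelled WT diaphragm), and Ppargc1b and Gabpa in 2 each. Nrf1 and Yy1 had values of 0.12 and 0.04, not called. In gastrocnemius Ppargc1a was 8.04, 8.01 and 7.94 in WT and 8.29, 8.98 and 8.73 in KO, without overlap, and was not called (0.68, limma adjusted p = 0.27).

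**Figure D5:**
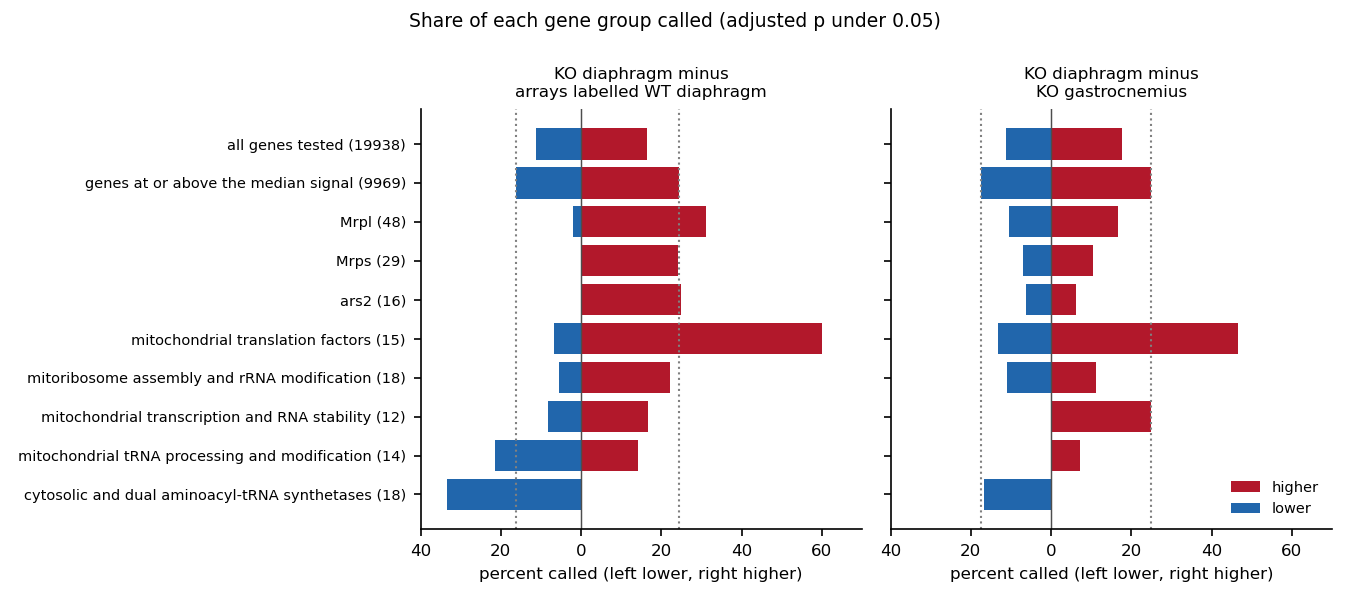
Share of each gene group called higher (right of 0, red) or lower (left of 0, blue) in the comparison of KO diaphragm with the arrays labelled WT diaphragm and with KO gastrocnemius (horizontal axis, percent); dotted lines mark genes at or above the median signal, and the 15 translation factors include the member Mrpl58. Mrpl, Mrps and ars2 lie near the right dotted line in the left panel and inside both dotted lines in the right panel.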

How the data were processed

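Total RNA from each muscle was hybridised to 1 Affymetrix Mouse Gene 1.0 ST array. The deposited values are log2 signals that the authors made with RMA in Affymetrix Expression Console, per the labels, with no version given in the sources used here. They ranged from 1.65 to 14.41, and no 2 arrays were identical. Probe sets were named through the platform annotation: of 35556, 21789 had 1 symbol, 1621 several and 12146 none, and the brightest probe set stood for each of 19938 genes. The 93 members had 101 probe sets, and 8 members had more than 1. Members and gene lists were chosen with earlier results of these data known.

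Groups came from the sample titles. limma 3.58.1 in R 4.3.3 fitted all 12 arrays with a mean per group (8 residual degrees of freedom, median residual SD 0.138), and Benjamini-Hochberg adjustment ran over 19938 genes. Simulated data were made from each gene's mean and residual SD over all 12 arrays, with shifts added to the KO gastrocnemius arrays. There the gastrocnemius comparison called 92 of 100 genes shifted by 1 log2 unit and 58 of 100 shifted by 0.5. It also made 8 false calls. The deviations of same-numbered samples from their group means correlated at -0.096 to 0.161, so numbers were not taken as pairs. The number of arrays limits the precision. Genes named are those called with the largest differences, up to 6 per class and comparison, the 8 smallest p in gastrocnemius, the Mrps18 paralogs, and for the other lists up to 4 called genes; the head-to-head pairs, Gatc and Chchd1 were singled out after their values were seen. Alternatives covered the samples fitted, a replicate block, the variance prior, scaling, dim genes, the choice of probe set, each array left out, and the methods' t-test. Leave-one-out values of gene lists and classes were added after seeing the data. Promoter windows and gene positions came from RefSeq (GRCm38.p6).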

Additional observations from a re-analysis of the deposited data

Results flagged for a closer look

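The interaction term was called by limma for 5 members, whose difference between KO diaphragm and the arrays labelled WT diaphragm was unequal to that between KO and WT gastrocnemius: Mrpl39 at 0.452 (adjusted p = 0.032), Mrpl41 at 0.708 (0.039), Mrps35 at 0.594 (0.020), Mrps9 at 0.434 (0.042) and Mrpl54 at -0.522 (0.027). Because the arrays labelled WT diaphragm go against their label, the muscle and the genotype cannot be told apart in these values. With each of the 12 arrays left out in turn, Mrps35 was called 11 times, the exception being without WT gastrocnemius replicate 1 (adjusted p = 0.051), Mrpl54 5 times, Mrpl39 4 times, and Mrpl41 and Mrps9 3 times each, all with the same sign throughout.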

How the results depend on the processing

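In gastrocnemius, the count of members called stayed at 0 in both directions under every alternative run except averaging the probe sets of each gene, which called 1 (Mrpl27). Between KO diaphragm and the arrays labelled WT diaphragm, 26 members were higher and 1 lower; the methods' t-test after adjustment called 3 and 0, the replicate block as a fixed effect called 2 lower, centred arrays 4, quantile normalization 5 and the brighter genes alone 3. With each array left out in turn, 17 to 30 were higher and 0 to 4 lower, and the ars2 median was 0.072 to 0.188, against 0.025 with centred arrays. Between the KO muscles, 12 higher and 8 lower became 6 and 16 with centred arrays and 7 and 4 by the t-test, with 5 to 9 lower as arrays were left out. There the centred medians were -0.039 for all members, -0.012 for Mrpl, -0.117 for Mrps and 0.009 for ars2, and the ars2 median was 0.037 after quantile normalization. The median between arrays labelled WT diaphragm and WT gastrocnemius ran from 0.001 to 0.129 as arrays were left out. The interaction, with 4 positive and 1 negative, gave 0 and 3 with centred arrays, and 2 negative after quantile normalization, with the brighter genes alone and with the mean of probe sets; leaving out arrays gave 1 to 3 positive and 0 to 2 negative. Its centred medians were -0.130 for all members, -0.136 for Mrpl, -0.130 for Mrps and -0.088 for ars2, and the ars2 median was -0.044 after quantile normalization. Centring subtracts 1 value per array from every gene, so it moved the medians of all genes too. They went from -0.044 to -0.118 between KO diaphragm and the arrays labelled WT diaphragm. Between the KO muscles they went from 0.016 to -0.111, and in the interaction from -0.002 to -0.134. The cause of the other shifts was not tested. The replicate block changed no other count of calls by over 1.5 times. No direction of a called member reversed. Updated gene symbols left the 93 members as they were.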
